A study of Mus musculus with 5 samples.

Results

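The genes described here encode ligands that tumor cells show to natural killer (NK) cells, T cells and macrophages. They are Pvr, Nectin2 and Nectin3 of the nectin family, Cd274, Pdcd1lg2, Cd276, Vtcn1 and Cd80 of the B7 family, the galectin Lgals9 and the macrophage checkpoint Cd47. They were chosen by symbol, and all 10 were listed among the 17923 genes with a value in at least 1 library. As background, Pvr and Nectin2 bind the activating receptor DNAM-1 on NK cells and T cells and the inhibitory receptor TIGIT, so the same ligand can promote or restrain killing. The PD-1 ligands encoded by Cd274 and Pdcd1lg2, and the B7 relatives encoded by Cd276 and Vtcn1, are known mainly for restraining T cells. Cd80 serves the costimulatory receptor CD28 and the inhibitory receptor CTLA-4, and CD47 holds back phagocytosis through SIRPα.

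RNA was sequenced from mouse cell lines grown from BrafV600E-driven thyroid tumors with intact Ctnnb1, the β-catenin gene (BVE-Ctnnb1wt, 2 libraries, called wt replicates 1 and 2), or with deleted Ctnnb1 (BVE-Ctnnb1null, 3 libraries, called null replicates 1, 2 and 3). Both wt libraries carry the line name BVE and the tag P20, which reads as a passage number, the first grown without TSH, the thyroid-stimulating hormone, and the second with it. The null libraries carry the line names BVECTN_4 (P8, no TSH), BVECTN_4A (P11) and BVECTN_5 (P7), and for the last 2 the labels do not state TSH. The protocol text gives other passage numbers for the lines than these tags. The wt group is thus a single line, and genotype, line and passage cannot be told apart. The wt libraries are cultures of that line that differ in TSH. The p-values of the fits rest on the spread within both groups, between these cultures and between the null libraries. No spread between wt lines enters them. The deposited values per transcript were an estimated read count and FPKM (fragments per kilobase of transcript, scaled to sequencing depth), and both were summed per gene. Total estimated counts were 30432737 and 30713079 in wt, against 29929677, 29360002 and 29415980 in null replicates 1, 2 and 3. A count of 3, the limit that a count of 0 allows, was 0.10 CPM (counts scaled to library size) in each library and covers counting error only.

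Ctnnb1 (NCBI gene 12387), the deleted gene, had 6432 and 8043 counts in wt, against 13568, 20510 and 12285 counts in null. Its log2 fold change was 0.55 (SE 0.44, adjusted p = 0.517, edgeR quasi-likelihood test). Its RNA was therefore not lower in the libraries labelled null. Values per transcript do not show whether particular exons are missing, so the deletion could not be checked, and every direction given here rests on the labels alone. The labels call all cells thyroid epithelial cells, but the null libraries differed from each other in markers of cell type. Epcam and Cdh1, which define epithelial cells, had FPKM of 5.04 and 4.61 and of 1.94 and 1.62 in the wt libraries. In null replicate 1 they reached 152 and 136, in null replicate 2 neither was listed (taken as 0), and in null replicate 3 they were 59.6 and 20.9. The keratin Krt8 ranged from 201 to 1798 FPKM over the 5 libraries, and the 6 epithelial markers summed to 1073 and 1742 FPKM in wt and 12070, 706 and 1204 FPKM in null, with Krt8 the most abundant in both wt libraries and Krt7 in null replicates 1 and 3. Dcn and Thy1, markers of fibroblasts, were at 84.7 and 88.5 FPKM in null replicate 3 and at most 0.24 elsewhere. Other fibroblast markers did not share this restriction. Col1a1 had 161 and 118 FPKM in wt, against 1.11, 104 and 570 FPKM in null. Pdgfrb had 5.22 and 5.06 FPKM in wt, against 0, 20.8 and 23.4 FPKM in null, and Lum had at most 0.14 FPKM in any library. The 9 fibroblast markers, most of it Vim, summed to 1768 and 3661 FPKM in wt and 86.7, 3012 and 2713 FPKM in null. The thyroid transcription factor Nkx2-1 had FPKM of 9.21 and 15.0 in wt, against 9.26, 34.8 and 0.26 in null. Pax8, another thyroid transcription factor, had FPKM of 0.40 and 0.17 in wt, against 18.2, 12.8 and 2.56 in null, with no overlap between the groups (adjusted p = 0.180 in edgeR, 7.72e-05 in DESeq2). Its part in the members' values was not tested. Tg, the thyroglobulin gene, was low, at 0.80 and 0.86 FPKM in wt and 0.04, 0.51 and 0.34 FPKM in null. In such cultures fewer cells of a type and less RNA per cell cannot be told apart.

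Nectin2 and Nectin3 are listed as several transcripts that code for different proteins, and these sequences show where the forms part. The Nectin2 forms share 1016 coding bases and then differ, so that the longer protein has 530 residues and the shorter 467. Each line gives 20 shared coding bases in lower case and the next 30 bases, which belong to that form, in capitals, 5′ to 3′, from the GENCODE vM21 transcripts of GRCm38.
Nectin2 530-residue form: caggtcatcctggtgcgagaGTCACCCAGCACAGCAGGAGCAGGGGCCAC
Nectin2 467-residue form: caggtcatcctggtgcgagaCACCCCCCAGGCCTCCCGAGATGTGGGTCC
Nectin3 549-residue form: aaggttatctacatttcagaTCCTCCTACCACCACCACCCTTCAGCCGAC
Nectin3 510-residue form: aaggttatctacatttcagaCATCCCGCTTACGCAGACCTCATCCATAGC
The Nectin3 forms share 1070 coding bases up to this point. A further Nectin3 form, of 438 residues, continues like the 510-residue form and leaves it after 1293 coding bases. In both genes the shared part covers the first 338 or 356 codons, and the capitals begin the stretch in which the printed forms differ.

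Levels were compared between genes on FPKM, which is scaled to transcript length. Nectin2 was the most abundant member in 4 of the 5 libraries, and its mean over the 5 libraries was 63.9 FPKM. Lgals9 (29.2), Cd47 (25.2), Cd276 (14.4), Pvr (13.0) and Nectin3 (8.95) followed. Cd80 (0.86), Vtcn1 (0.67), Cd274 (0.15) and Pdcd1lg2 (0.004) were all low. No pair of neighbours among the first 6 kept its order in all 5 libraries. Lgals9 led in null replicate 2, where Nectin2 was the fourth, and Cd276 was the sixth in both wt libraries and the second in null replicate 1. Nectin3 was above Cd80 in every library, which set the 6 abundant members apart from the 4 low ones. The members together summed to 96.0 and 85.5 FPKM in wt and to 225, 152 and 224 FPKM in the null libraries. Nectin2 alone was 152 of the 225 FPKM in null replicate 1. On this scale the median of all genes was also higher in null, by 0.61 on log2(FPKM + 0.1).

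**Figure D1:**
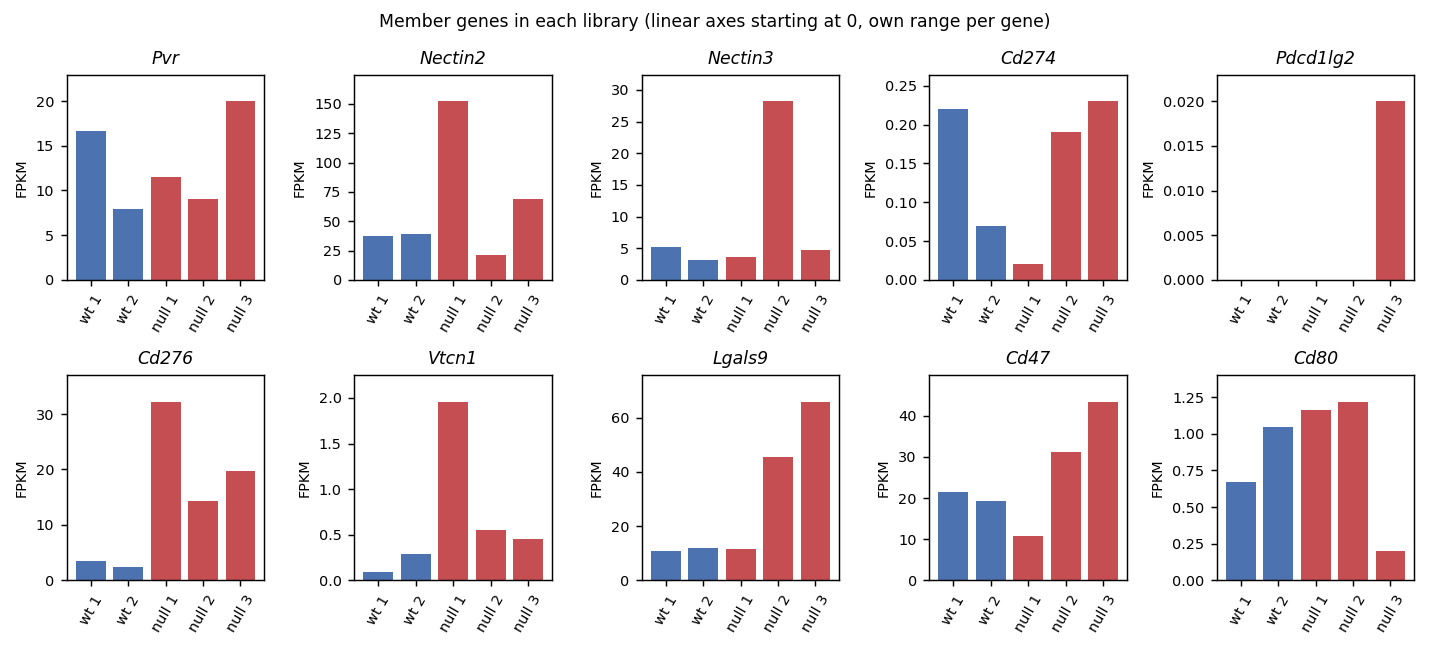
FPKM (vertical axes, linear from 0, with a range of their own per gene) of the 10 member genes in wt replicates 1 and 2 (blue) and null replicates 1, 2 and 3 (red); each bar is 1 library. Cd276 stands above both wt libraries in all 3 null libraries, while Nectin2, Nectin3 and Lgals9 are high in particular null libraries only.

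Across all 13241 genes tested with edgeR's quasi-likelihood test, 0 genes (0%) passed an adjusted p of 0.05 (Benjamini-Hochberg), and the lowest adjusted p was 0.0843. Before adjustment, 1645 genes (12.4%) were higher and 805 (6.08%) were lower at p under 0.05 in the null libraries. DESeq2 called 1113 of 13129 genes higher (8.48%). Of the 10 members, 0 passed the adjusted threshold in edgeR, 1 (Cd276) was higher at p under 0.05 before adjustment and 0 were lower. DESeq2 called 1 of the 10 members, again Cd276. On FPKM, 2 members, Cd276 and Vtcn1, had all null values above both wt values, against 35.9% of all genes tested, and 0 members had all of them below, against 7.22%. On CPM after TMM normalization this held for 1 member, Cd276, against 22.6% of all genes above, and again for 0 members below, against 17.3%. For the 9 members with more than 3 counts in a library, the median log2 fold change was 0.66, against 0.29 over all genes tested, and 5 of the 9 were above 0, against 59.3% of all genes. It was 0.20 without null replicate 1 and -0.26 without null replicate 2. The median over all genes was 0.21 with DESeq2 and 0.61 on log2(FPKM + 0.1), so small changes depend on the scaling. With 2 libraries against 3, the smallest p of the exact two-sided permutation test is 0.2, so no member can reach 0.05 in that test.

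**Figure D2:**
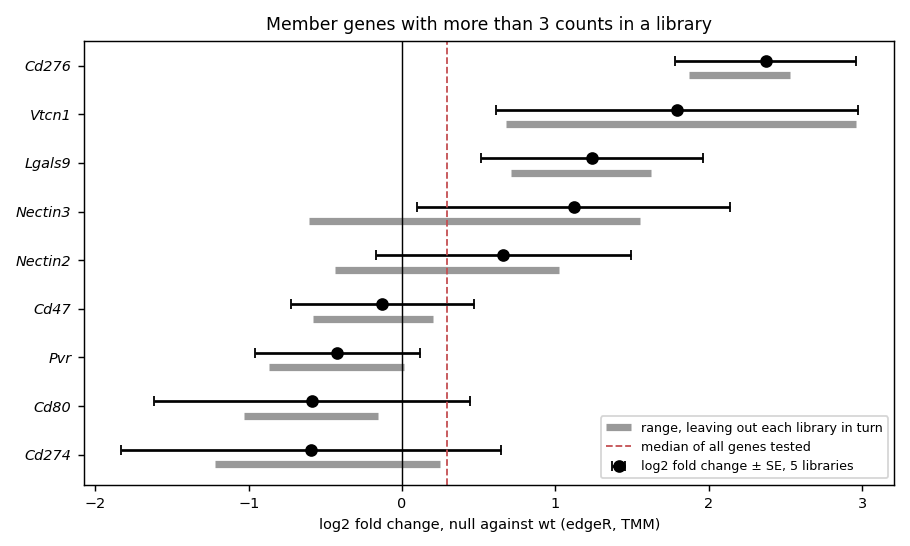
Log2 fold change of null against wt (horizontal axis, edgeR after TMM normalization) for the 9 members with more than 3 counts in a library. Points with bars are the estimate and its standard error over 5 libraries, grey bars the range when each library is left out in turn, and the dashed line the median of all genes tested (0.29); the grey bars of Nectin2, Nectin3, Cd47, Cd274 and Pvr cross 0, those of Cd276, Vtcn1, Lgals9 and Cd80 do not.

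Among the ligands of DNAM-1, Pvr (NCBI gene 52118), which encodes CD155, had FPKM of 16.7 and 7.96 in wt replicates 1 and 2 and 11.6, 9.05 and 20.0 in null replicates 1, 2 and 3. The groups overlapped, and the values of the 2 wt libraries, which share a line name and differ in TSH, were 2.09-fold apart, nearly as far as the lowest and highest null library (2.21-fold). The log2 fold change of Pvr was -0.42 (SE 0.54, adjusted p = 0.692, edgeR quasi-likelihood test with Benjamini-Hochberg adjustment). On log2(FPKM + 0.1) the change was 0.15, so its direction depends on the scaling.

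Nectin2 (NCBI gene 19294), which encodes CD112, had FPKM of 37.5 and 39.4 in wt, against 152, 21.5 and 69.0 in null replicates 1, 2 and 3. The wt libraries were nearly equal, and the null libraries lay on both sides of them over a 7.07-fold range. The log2 fold change was 0.66 (SE 0.83, adjusted p = 0.688, same test), and it was -0.44 without null replicate 1. Nectin2 was lowest in the library where Epcam and Cdh1 were not listed and highest in the library where they were highest. The keratins of the epithelial list were also highest in null replicate 1, but only Krt19 was lowest in null replicate 2 (17.8 FPKM). Krt8 was lowest in null replicate 3 (201 FPKM), and Krt7 and Krt18 in wt replicate 1 (79.7 and 321 FPKM). The part of cell state in the Nectin2 values was not tested. Nectin2 exceeded Pvr in every library, by 2.25-fold and 4.95-fold in wt and by 13.2-fold, 2.38-fold and 3.45-fold in the null libraries.

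The forms of Nectin2 shown above were used unequally. The 530-residue form made up 33.2% and 17.5% of the Nectin2 FPKM in wt and 64.9%, 57.9% and 17.8% in null replicates 1, 2 and 3. It was thus the main form in null replicates 1 and 2 and the minor form in null replicate 3 and both wt libraries. Its share was 25.3% ± 11.1 (SD, n = 2) in wt and 46.9% ± 25.4 (SD, n = 3) in null (exact two-sided permutation test, p = 0.4). In FPKM the 530-residue form was at 12.4 and 6.91 in wt, against 98.7, 12.4 and 12.3 in null, so its excess was that of null replicate 1. The 467-residue form was at 25.1 and 32.5 FPKM in wt, against 53.4, 9.06 and 56.7 in null. In null replicate 2, total Nectin2 was below both wt libraries while the 530-residue form was not. The split between forms is an estimate of the counting program. An annotated antisense gene, Gm20512, overlaps 135 exonic bases of the 530-residue form and none of the other, and whether counting used strand is not given in the sources used here.

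Nectin3 (NCBI gene 58998), the partner that binds PVR and other nectins between cells, had FPKM of 5.12 and 3.22 in wt, against 3.55, 28.2 and 4.68 in null. Null replicate 2 alone was high. Null replicates 1 and 3 lay between the wt libraries on FPKM and below both on TMM-normalized CPM (8.04 and 9.49 against 15.3 and 9.93). The log2 fold change was 1.12 (SE 1.02, adjusted p = 0.565, same test) and -0.61 without null replicate 2. In null replicate 2 the 549-residue form made up 74.5% of the Nectin3 FPKM, against 50.4% and 30.7% in wt and 45.9% and 47.4% in null replicates 1 and 3. The 438-residue form was at 2.40 and 2.23 FPKM in wt, against 1.12, 3.81 and 2.22 FPKM in null, so most of the excess in null replicate 2 was in the 549-residue form (21.0 FPKM there, 2.58 FPKM or less elsewhere). Nectin3 was high where Nectin2 was low.

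**Figure D3:**
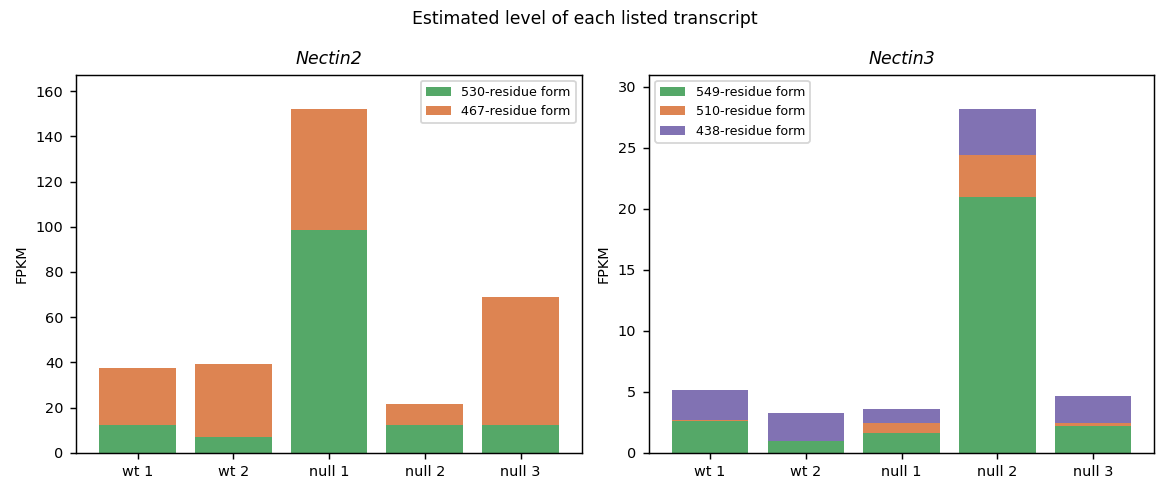
FPKM (vertical axis, linear from 0) of each listed transcript of Nectin2 (left) and Nectin3 (right), stacked per library (horizontal axis, wt replicates 1 and 2, then null replicates 1 to 3) and coloured by the length of the protein it encodes. The 530-residue form of Nectin2 reaches 98.7 FPKM in null replicate 1, and the 549-residue form of Nectin3 reaches 21.0 FPKM in null replicate 2.

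Other nectins and their relatives also varied widely among the null libraries. Of 6 such genes tested, 0 passed the adjusted threshold or p under 0.05 in edgeR. Of all genes, 12.4% were higher and 6.08% were lower at p under 0.05 before adjustment. The median log2 fold change of the 6 was 0.89, against 0.29 over all genes. Of the 6, 5 were above 0, against 59.3% of all genes. Nectin4 had FPKM of 0.12 and 0.25 in wt, against 15.6, 0.06 and 2.82 in null, and Nectin1 had 0.41 and 0.77 in wt and 6.23, 0.63 and 3.90 in the null libraries. Both were highest in null replicate 1 and lowest among null libraries in null replicate 2, the order also seen for Nectin2. The log2 fold changes were 4.57 (SE 2.05, adjusted p = 0.288) for Nectin4 and 2.03 (SE 1.05, adjusted p = 0.338) for Nectin1 (edgeR quasi-likelihood test), and DESeq2 called Nectin4 (adjusted p = 0.0351). Without null replicate 1 they were 2.26 and 1.22. Cadm1, an adhesion molecule that binds the receptor CRTAM, had 18.1 and 14.9 FPKM in wt, against 5.51, 25.9 and 2.14 FPKM in null. Afdn, the afadin gene whose product ties nectins to actin, had 6.17 and 4.28 FPKM in wt, against 28.2, 11.1 and 7.87 FPKM in null. On TMM-normalized CPM the groups overlapped (55.5 in wt replicate 1, 48.8 in null replicate 3). The log2 fold change of Afdn was 1.07 (SE 0.685, adjusted p = 0.426, edgeR quasi-likelihood test).

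Of the B7 members, Cd276 (NCBI gene 102657), which encodes B7-H3, carried most of the RNA. Among those with more than 3 counts in a library, Cd276 had the largest log2 fold change over all 5 libraries. Its FPKM was 3.43 and 2.44 in wt, against 32.3, 14.3 and 19.7 in null replicates 1, 2 and 3. All 3 null libraries lay above both wt libraries with no overlap, and the lowest null library was over 4 times the highest wt library. The mean was 2.94 ± 0.70 FPKM (SD, n = 2) in wt and 22.1 ± 9.23 FPKM (SD, n = 3) in null, a 7.51-fold ratio of means. The log2 fold change was 2.37 (SE 0.59, p = 0.00556, adjusted p = 0.188, edgeR quasi-likelihood test with Benjamini-Hochberg adjustment; exact two-sided permutation test on FPKM, p = 0.2). It lay between 1.87 and 3.16 under every alternative run, with an adjusted p from 0.00483 (DESeq2, the only alternative that called it) to 0.841. Without wt replicate 2 the unadjusted p was 0.0611. On log2(FPKM + 0.1), Cd276 was above the wt mean by 3.43, 2.26 and 2.72 in null replicates 1, 2 and 3. Epcam was above both wt libraries in null replicates 1 and 3 and was not listed in null replicate 2. Dcn and Thy1 were high in null replicate 3 only. Col1a1, another fibroblast marker, had 161 and 118 FPKM in wt, against 1.11, 104 and 570 FPKM in null. The part of cell state in the Cd276 values was not tested. Cd276 made up 77.8% and 63.4% of the summed FPKM of the 5 B7 members in wt and 91.1%, 87.9% and 95.6% in the null libraries. An annotated transcript on the opposite strand, Gm10657, overlaps 416 exonic bases of Cd276 in GENCODE.

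Vtcn1 (NCBI gene 242122), which encodes B7-H4, was low throughout. It had 7 and 24 counts in wt, against 155, 43 and 35 counts in null, or 0.09 and 0.29 FPKM against 1.96, 0.55 and 0.45 FPKM. The null libraries lay above the wt libraries on FPKM, but the groups overlapped on CPM after TMM normalization (1.06 in wt replicate 2, 0.98 in null replicate 3). The log2 fold change was 1.79 (SE 1.18, adjusted p = 0.436, same test). It was 0.68 without null replicate 1 and 2.96 without wt replicate 2, above the 2.13 of Cd276 in that fit.

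Of the PD-1 ligands, Cd274 was low and Pdcd1lg2 was under the limit of detection. Cd274 (NCBI gene 60533), which encodes PD-L1, had 25 and 8 counts in wt, against 2, 20 and 25 counts in null replicates 1, 2 and 3, or at most 0.23 FPKM. The groups overlapped, and null replicate 1 was under the limit of 3 counts. Its log2 fold change was -0.59 (SE 1.24, adjusted p = 0.816, same test) and 0.25 without wt replicate 1, and no difference was detected. An annotated antisense gene overlaps 511 exonic bases of Cd274. Pdcd1lg2 (NCBI gene 58205), which encodes PD-L2, had 2 counts in null replicate 3 and was not listed in the other libraries. Both groups were under the limit, no fold is given, and Pdcd1lg2 was the 1 member that did not pass the filter on low counts. Cd80 (NCBI gene 12519) had 35 and 55 counts in wt, against 59, 61 and 10 counts in null. By count, null replicate 3 was low and the other null libraries were just above the wt libraries, while on TMM-normalized CPM they lay below wt replicate 2 (1.82 and 1.70 against 2.44), and the log2 fold change was -0.58 (SE 1.03, adjusted p = 0.780, same test).

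Markers of immune cells, which carry some of these ligands, differed in level. Ptprc, the gene of the leukocyte antigen CD45, and Cd3e, Cd4, Ncr1, Ms4a1 and Adgre1 were listed in 0 libraries. The 8 markers of T and NK cells summed to at most 0.19 FPKM in any library, with Cd8a the most abundant on the sum over libraries and Cd3d in wt replicate 1. The 10 markers of macrophages and dendritic cells summed to 12.2 and 17.1 FPKM in wt, against 68.6, 1.91 and 58.7 FPKM in null. Most of that was Cd68, a lysosomal gene, and Cd74, while Itgam and Itgax had at most 3 counts and Csf1r at most 43. Cd68 had FPKM of 6.09 and 14.2 in wt, against 59.8, 1.00 and 39.9 in null, highest and lowest in the same libraries as Nectin2, and its part in the Nectin2 values was not tested. The leukocyte list summed to at most 1.57 FPKM (Coro1a the most abundant), the 3 B cell markers to at most 0.77 (Cd79a, with every null library below both wt libraries) and the endothelial list to at most 0.66 (Kdr).

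Lgals9 (NCBI gene 16859), whose product galectin-9 is known as a ligand of the receptor TIM-3, had FPKM of 10.8 and 11.8 in wt, against 11.6, 45.7 and 66.0 in null replicates 1, 2 and 3. Null replicates 2 and 3 were above both wt libraries, and null replicate 1 lay between them on FPKM and below both on TMM-normalized CPM (15.97 against 19.21 and 23.97). The mean was 11.3 ± 0.68 FPKM (SD, n = 2) in wt and 41.1 ± 27.5 FPKM (SD, n = 3) in null, with a log2 fold change of 1.24 (SE 0.73, adjusted p = 0.392, same test). It was 1.62 without null replicate 1, with p under 0.05 before adjustment and an adjusted p of 0.0991, and 0.71 without null replicate 3. The shorter of its 2 listed transcripts, of 322 residues, made up at least 98.5% of the Lgals9 FPKM in every library. The Lgals9 promoter holds the letters of an interferon-stimulated response element (GAAA, any 2 bases, GAAA) on its reverse strand, 46 to 55 bases before the start (RefSeq, GRCm38.p6, chr11:78984945-78985004, minus strand). It is shown because Lgals9 was the 1 member of the 9 with a promoter entry to hold it, with the match in capitals.
Lgals9 promoter: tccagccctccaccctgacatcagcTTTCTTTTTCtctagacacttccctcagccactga
These letters, on either strand, were found in 3.44% of the 32851 promoters in the RefSeq table, each searched from 250 bases before to 50 bases after the start. The letters of a TCF/LEF motif (CTTTGAA or CTTTGAT) and of a gamma-activated site (TTCNNNGAA) were searched on both strands too, and 0 of the 9 members held either in that window, against 8.65% and 8.30% of all promoters. Members were counted per gene and the shares per promoter entry. At such shares 9 members are too few to show a lack of either motif. Pvr had no promoter entry and was not searched.

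Cd47 (NCBI gene 16423) was expressed in every library, with 21.5 and 19.2 FPKM in wt, against 10.8, 31.2 and 43.5 FPKM in null. On FPKM, null replicate 1 was below and null replicates 2 and 3 were above both wt libraries, while on TMM-normalized CPM null replicate 2 (49.4) was just below both (49.6 and 51.0). The log2 fold change was -0.13 (SE 0.60, adjusted p = 0.921, same test), 0.27 on log2(FPKM + 0.1) and 0.20 without null replicate 1. In the list of CD47 partners, 2 of 4 genes were higher at p under 0.05 before adjustment, against 12.4% of all genes, and 0 passed after it. Thbs1, the gene of thrombospondin-1 and a secreted CD47 ligand, had 2.82 and 5.13 FPKM in wt, against 39.1, 109 and 110 FPKM in null. The groups were far apart, with a log2 fold change of 3.79 (SE 0.69, adjusted p = 0.180, same test) and an adjusted p of 5.24e-06 in DESeq2. Sirpa, which encodes the macrophage receptor for CD47, had 0 and 5 counts in wt, against 74, 31 and 821 counts in null (log2 fold change 6.28, SE 2.17, adjusted p = 0.222, same test). Null replicate 3 was far above the other null libraries, as it was for Dcn and Thy1. For Sirpa the log2 fold change was 3.74 without null replicate 3, and DESeq2 called it (adjusted p = 0.0045). Calr, a signal that favours phagocytosis, overlapped between the groups, with 739 and 1581 FPKM in wt and 1021, 815 and 1528 FPKM in the null libraries.

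In the wider list of costimulatory and inhibitory ligands, 6 of 13 genes were tested, 3 were lower and 0 were higher at p under 0.05 before adjustment, against 6.08% and 12.4% of all genes, and 0 passed after it. Tnfsf9, the gene of the costimulatory ligand 4-1BBL, had 56.7 and 39.9 FPKM in wt, against 15.0, 7.43 and 4.2 FPKM in null. The wt values were the highest, with a log2 fold change of -2.97 (SE 0.66, adjusted p = 0.180, same test) and an adjusted p of 0.00118 in DESeq2. When leaving out each library, the log2 fold change ranged from -3.7 (without null replicate 1) to -2.68 (without null replicate 3). Lgals1, the gene of galectin-1, was among the most abundant transcripts, with 7422 and 9331 FPKM in wt, against 3961, 3506 and 4525 FPKM in null (log2 fold change -1.66, SE 0.37, adjusted p = 0.180, same test; adjusted p = 0.00356 in DESeq2). Lgals3 was lower by CPM in all null libraries (log2 fold change -1.36, SE 0.54, adjusted p = 0.253, same test), but its FPKM overlapped, at 313 and 432 in wt and 314, 128 and 206 in the null libraries. Ceacam1, another TIM-3 ligand, was at 4 and 3 counts in wt, against 442, 2 and 53 counts in null, high where Epcam was high, and DESeq2 called it (adjusted p = 0.0344). Cd24a had 35.6 and 34.8 FPKM in wt, against 153, 112 and 40.6 FPKM in null. On TMM-normalized CPM the groups overlapped (77.7 and 87.1 in wt, 61.1 in null replicate 3). The log2 fold change of Cd24a was 0.98 (SE 0.65, adjusted p = 0.436, edgeR quasi-likelihood test). Cd86, the companion of Cd80, was listed in 0 libraries.

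The list of the interferon-gamma pathway and PD-L1 control held 24 genes. All were tested, 4 were higher and 1 was lower at p under 0.05 before adjustment, against 12.4% and 6.08% of all genes, and 0 passed after it. The median log2 fold change was 0.51, against 0.29 over all genes. By FPKM, 16 of the 24 had all null libraries above both wt libraries and 1 had all below, against 35.9% and 7.22% of all genes. By TMM-normalized CPM the numbers were 10 and 3, against 22.6% and 17.3%. Jak2, a kinase of the interferon-gamma receptor, had 0.37 and 0.43 FPKM in wt, against 4.91, 1.44 and 6.85 FPKM in null (log2 fold change 2.88, SE 0.84, adjusted p = 0.194, same test). Jak1, its partner kinase, had 5.31 and 6.82 FPKM in wt, against 15.9, 28.7 and 34.8 FPKM in null (log2 fold change 1.5, SE 0.50, adjusted p = 0.215, same test). Cmtm4, whose product protects PD-L1 from degradation, had 2.45 and 1.47 FPKM in wt, against 16.5, 7.21 and 22.8 FPKM in null (log2 fold change 2.43, SE 0.64, adjusted p = 0.191, same test). The receptor gene Ifngr1 had 5.19 and 4.68 FPKM in wt and 24.2, 10.5 and 16.5 FPKM in the null libraries.

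The transcription factors of this pathway differed in direction. Irf1, the activator through which interferon-gamma is known to raise Cd274, had 35.6 and 53.5 FPKM in wt, against 19.7, 8.15 and 19.6 FPKM in null. No null value reached a wt value, and the log2 fold change was -2.08 (SE 0.56, adjusted p = 0.191, same test). Irf2, a relative that can compete for the same sites, had 2.09 and 1.87 FPKM in wt, against 9.83, 8.84 and 8.99 FPKM in null (log2 fold change 1.64, SE 0.51, adjusted p = 0.201, same test). In DESeq2, the adjusted p was 0.00995 for Jak2, 0.0081 for Cmtm4, 0.0136 for Irf1, 0.0151 for Irf2 and 0.0691 for Jak1, which it did not call.

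**Figure D4:**
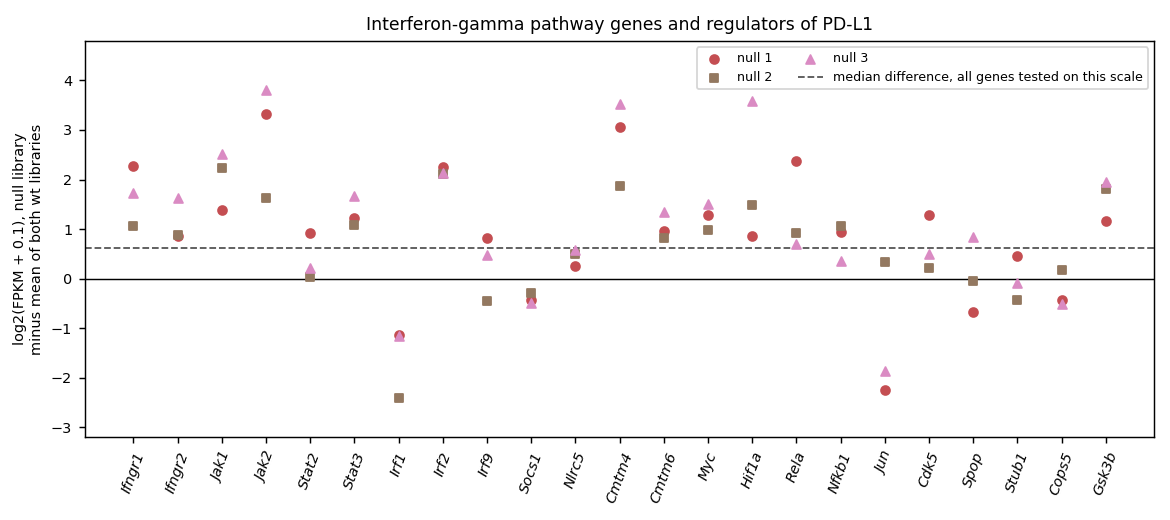
Difference of each null library from the mean of both wt libraries on log2(FPKM + 0.1) (vertical axis) for genes of the interferon-gamma pathway and PD-L1 control (horizontal axis); circles, squares and triangles are null replicates 1, 2 and 3. The dashed line is the median difference over all genes tested on this scale (0.61); Irf1 lies below 0 in all 3 null libraries and Jak2, Irf2 and Cmtm4 lie above the dashed line in all 3.

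Genes most like 3 of the members were sought by the Pearson correlation of log2(CPM + 1) over the 5 libraries, a description that rests on 5 points which share library and depth. For Pvr these were Aars (r = 0.990), Atf3 (r = 0.989) and 2410006H16Rik (r = 0.988) among 7298 genes with a mean of at least 5 FPKM. Like Pvr, Atf3 was higher in wt replicate 1 (20.1 FPKM) and null replicate 3 (17.3 FPKM) than in wt replicate 2 (3.81), null replicate 1 (3.11) and null replicate 2 (1.18). For Nectin2 they were Cltb, Cd82 and Pacsin3 (r = 0.998, 0.998 and 0.997), and 153 genes had r over 0.95, against 15 for Pvr. For Cd274 they were Tmem68, Rab28 and Rnmt (each r = 0.995), a likeness that rests on counts of 25 or fewer.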

How the data were processed

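RNA from 5 cell line libraries (Illumina TruSeq, per the study's methods) was analysed from 1 table per library. The authors deposited an estimated count and an FPKM value for each RefSeq transcript with an FPKM of at least 0.01. The aligner, counting program, genome build and annotation are not given in the sources used here. Values were summed per NCBI gene number, and estimated counts were rounded. Of 17923 genes, 17866 matched a symbol in the RefSeq table of GRCm38.p6. Total counts per library are in the report.

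Groups followed the sample labels. All 5 libraries were fitted with edgeR 4.0.16 in R 4.3.3 (TMM, filterByExpr by group with the members and Ctnnb1 kept, glmQLFit, glmQLFTest, Benjamini-Hochberg over 13241 genes). Of the members, 9 passed the filter by themselves. The standard error (SE) is the log2 fold change divided by the square root of the F statistic. Alternatives were DESeq2 1.42.0, a replicate block, leaving out each library, count filters (none, or a minimum of 10 in each library), and the limma-trend method (3.58.1) on log-transformed FPKM with pseudocounts of 0.1, 0.01 and 1, or on FPKM rescaled to TPM with 0.1, where FPKM reached 0.5 in 2 or more libraries. The edgeR fits on all libraries (each count filter and the block), DESeq2 and limma on FPKM were tested on simulated data. The limma fit on TPM and the fits leaving out a library were not. Exact permutation tests used scipy 1.17.1.

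The members and gene lists were chosen with earlier results of these data known. Named genes were all members, genes of the lists with a mean FPKM of at least 1 in a group (others were counted, except Cd86 and markers named as absent or near 0), and the 3 genes most like Pvr, Nectin2 and Cd274. Where a gene is named in a list, its overlap with other genes was not examined, except for the members and Tigit. Some genes of the lists are counted but not reported here by name.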

Additional observations from a re-analysis of the deposited data

How the results depend on the processing

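Among the members, Cd276, Vtcn1, Lgals9 and Ctnnb1 as a reference kept the direction of their log2 fold change under all alternatives that gave a value. The number of genes with an adjusted p under 0.05, 0 higher and 0 lower in edgeR, was 1113 and 487 with DESeq2, 1 and 5 with limma on log2(FPKM + 0.1), 1 and 3 with 0.01 or TPM, and 1 and 7 with a pseudocount of 1. It was 0 and 4 without the count filter and 0 and 1 with at least 10 counts in every library. Leaving out each library gave 0 and 0. DESeq2 called 1 member. The number of members with p under 0.05 before adjustment was 1, 2 with limma on TPM, and 0 to 2 when leaving out each library, with 0 without wt replicate 2 and 2 when null replicate 1 was left out. For the members, the median log2 fold change, 0.66, ranged from -0.26 (without null replicate 2) to 0.71 when leaving out each library.

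Directions reversed as follows. Pvr, at -0.42, was 0.15, 0.15, 0.14 and 0.49 with limma on FPKM plus 0.1, 0.01 and 1 and on TPM, and ranged from -0.87 to 0.01 when leaving out each library. Cd47, at -0.13, was 0.27 in each limma fit on FPKM and 0.61 on TPM, and ranged from -0.58 to 0.20. Cd274, at -0.59, was 0.00 with a pseudocount of 1 and 0.12 on TPM, and ranged from -1.22 to 0.25. Cd80 was 0.04 on TPM. Nectin2 ranged from -0.44 to 1.02 and Nectin3 from -0.61 to 1.55 when leaving out each library. These limma fits use FPKM, on which the median gene was higher by 0.61 (0.95 on TPM) in the null libraries; beyond that the cause was not tested. Leaving out a wt library leaves 1 wt library, which is assumed to vary like the null libraries.

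With the replicate number as a block, the median of the members was 0.18 and 0 genes passed the adjusted threshold. The numbers mark no known pairing: deviations from the group means correlated at -0.121 for the libraries numbered 1 and -0.115 for those numbered 2, and the block leaves 1 residual degree of freedom.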

Other observations

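The receptor list held a value that stands out. Tigit, which encodes the inhibitory receptor for PVR and Nectin-2 and is known from T cells and NK cells, had counts of 25 and 70 in wt, against 812, 67 and 99 in null replicates 1, 2 and 3, or 0.88 and 2.38 FPKM against 28.6, 2.40 and 3.54 FPKM. Null replicate 1 alone was high, and the log2 fold change was 2.28 (SE 1.36, adjusted p = 0.397, edgeR quasi-likelihood test with Benjamini-Hochberg adjustment). Without null replicate 1 it was 0.15. No other annotated gene overlaps Tigit in GENCODE vM21. Of the 13 receptors, 6 were listed in 0 libraries (Cd226, which encodes DNAM-1, and Pvrig, Ctla4, Btla, Icos and Cd200r1), and the other receptors had at most 69 counts in a library. In null replicate 1, where Tigit was highest, Cd8a had 1 count, and Ptprc and Cd3e were not listed. Whether the Tigit reads come from whole transcripts was not tested.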
